A study of Rattus norvegicus with 48 samples.

Results

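Bile duct ligation was compared with a sham operation in rat liver slices that had received vehicle only. Libraries were chosen by their titles: 10 slices from ligated rats (BDL_veh) and 9 from sham-operated rats (Sham_veh), 19 of the 48 libraries of the series. A precision-cut slice is a thin section of fresh liver that is kept alive in culture, with its hepatocytes, bile duct cells, stellate cells, endothelium and immune cells in place. Both groups shared the tissue, the slice format and the vehicle, and differed in the operation. The strain, sex and age of the rats, the time since surgery, the time in culture and the number of animals are not given in the labels used here. Slices of 1 animal can therefore not be told from slices of several, and the spread behind each p-value is that between libraries, which may be technical. Total counts ran from 12723006 to 20629294 per library, with medians of 16766287 for sham and 14392475 for ligated slices.

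Ligation of the common bile duct holds bile back in the liver. As background, retained bile acids injure hepatocytes, bile ducts multiply in a ductular reaction, and stellate cells and portal fibroblasts become myofibroblasts that lay down collagen, while hepatocytes reduce bile acid synthesis and uptake. Genes carry Ensembl IDs in the tables, with no names beside them, and 0 of 32883 IDs matched the reference table used here. Markers of liver cells, collagens and bile acid genes could therefore not be looked up, the tissue label could not be checked against its markers, and genes are described in groups set by level, direction, annotation class and behaviour across libraries. RNA classes are named in the authors' quality table and are described by name. In whole slices, fewer cells of a type and less RNA per cell cannot be told apart.

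Ligated slices differed from sham slices in most of the genes tested, and the called increases were far larger in fold than the called decreases. The quasi-likelihood test of edgeR called 12146 of 14775 genes (82.2%) at an adjusted p under 0.05 (Benjamini-Hochberg). In ligated slices 5911 (40%) were higher and 6235 (42.2%) lower. The median called increase was 2.97-fold, with quartiles of 1.60-fold and 9.39-fold, and the median called decrease was 1.66-fold, with quartiles of 1.37-fold and 2.16-fold. Increases of 2-fold or more numbered 3798 (25.7%) and decreases of that size 1897 (12.8%). In sham libraries the former genes held a mean of 2.66% of all counts and the latter 32.8%, so the increases started on average from lower levels. At 4-fold or more there were 2525 increases and 441 decreases, and at 64-fold or more 203 and 17. Direction is relative to how libraries were scaled. Over all genes the median log2 fold change was -0.05 under TMM scaling and 0.30 under scaling by total counts. With total counts 66.1% of calls were increases against 48.7% with TMM factors, and 4035 genes were lower, 1040 of them by 2-fold or more.

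Many of these genes separated the groups library by library. In 4056 genes (27.5%) each of the 10 ligated libraries had a higher CPM (counts relative to library size, TMM scaled) than each of the 9 sham libraries, and in 3719 (25.2%) each was lower. These made up 68.6% of the called increases and 59.6% of the called decreases. The remaining called genes had overlapping libraries.

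Genes outside the authors' table of expressed protein-coding genes leaned towards increases more than genes inside it. Ligation raised 42.4% and lowered 22.9% of the 955 genes outside the table, with a median log2 fold change of 0.26. It raised 39.8% and lowered 43.5% of the 13820 genes inside the table, with a median of -0.07. The balance inside the table turned with other scalings, to 42.8% higher and 39.5% lower with RLE factors and 53.0% and 28.2% with total counts. Outside the table total counts gave 56.4% and 14.1%. The difference between both sets was not tested.

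In ligated slices a large part of the counts lay in other genes than in sham slices. The genes called lower held 77.6 ± 1.43% of all counts of sham libraries (SD, n = 9) and 52.7 ± 0.897% in ligated ones (n = 10). The genes called higher held 10.8 ± 0.964% in sham and 33.0 ± 0.848% in ligated slices. Their share ranged from 9.51% to 12.02% over sham libraries and from 31.9% to 34.6% over ligated libraries, so that no library lay between the groups. Genes that were not called held 11.5 ± 0.494% and 14.3 ± 0.234%. These shares describe genes chosen by their direction in the same libraries and carry no test.

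**Figure D1:**
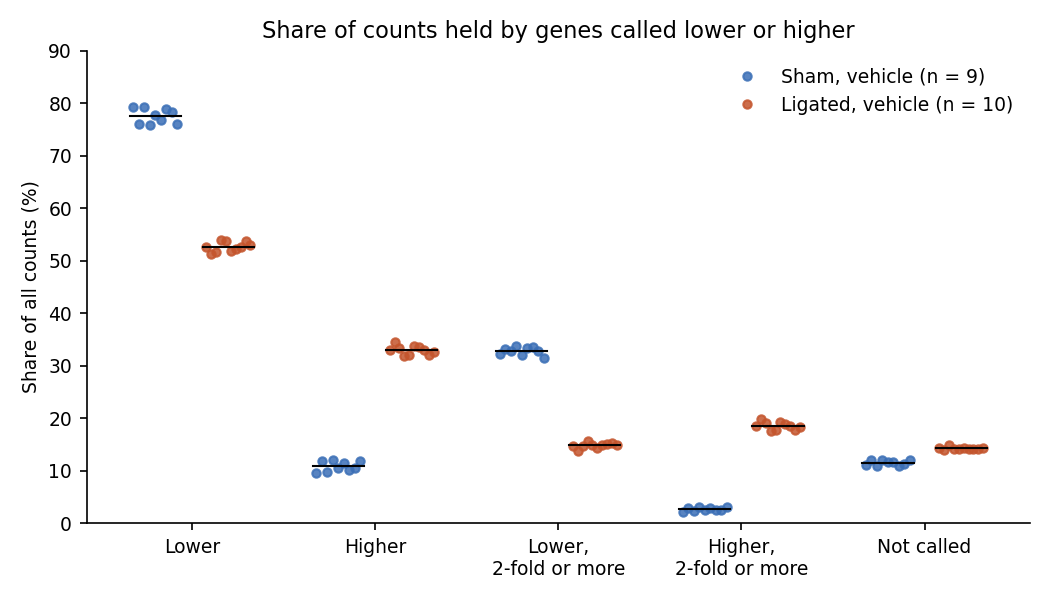
Share of all counts (percent, from 0) held by genes called lower, called higher, called with a change of 2-fold or more, or not called, in each sham (blue) and ligated (red) vehicle library; the 2-fold sets are contained in the larger ones, points are libraries and black lines are group means. Genes called higher took 10.8% of counts in sham and 33.0% in ligated slices, and genes called lower 77.6% and 52.7%.

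No single gene carried the change in makeup, but a small part of the genes carried much of it. Summed over all genes, 25.6 percentage points of the counts were lost by 7911 genes whose mean share fell and gained by 13684 genes whose mean share rose. This sum also counts sampling noise and spread between libraries, and no such sum within a group was computed. The 10 genes with the greatest loss accounted for 5.11 points and the 100 with the greatest loss for 13.1 points. The 10 with the greatest gain accounted for 3.78 points and the 100 with the greatest gain for 9.14 points. No single gene lost more than 0.857 or gained more than 0.623 points. Both groups shared 8 of their 10 most abundant genes. They shared 63 of the 100 most abundant and 678 of the 1000 most abundant genes. The 100 leading sham genes held 34.4% of all counts in the sham group against 24.3% in the ligated group, and the 100 leading ligated genes held 30.1% in the sham group against 27.7% in the ligated group.

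A smaller set of genes was near silent in one group. In 678 of the 14775 genes tested all ligated libraries had 1 CPM or more and all sham libraries less, and 67 genes showed the reverse. The switched-on genes had a median level of 4.12 CPM in ligated and 0.229 CPM in sham slices. Of them 93 had a mean under 2 CPM in ligated slices, just inside the limit, and 128 had 10 CPM or more. In sham slices 4 of them had 0 counts in all libraries, and the others had a count in at least 1 library. The authors' protein-coding table held 653 of the 678. The switched-off genes had a median level of 3.10 CPM in sham and 0.295 CPM in ligated slices, 3 of them had 10 CPM or more in sham slices, and none had 0 counts in all ligated libraries.

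Part of the switched-on set was also at 1 CPM or more in ligated slices given a compound. SB525334 blocks ALK5, the receptor kinase through which TGF-beta signals, and for Sora and Nint the labels give only these short forms. The deposited sample sheet gives the SB525334 group another code, so its identity rests on the sample titles. This held in every library for 574 of the 678 genes (84.7%) in BDL_Nint (n = 10), for 536 (79.1%) in BDL_Sora (n = 10) and for 375 (55.3%) in BDL_SB525334 (n = 9). In all 3 groups together it held for 338 genes. Of the 67 switched-off genes 27 stayed under 1 CPM in all libraries of these 3 groups. The groups differ in size and treatment, and the counts are given as a description. Both sets were chosen by the vehicle libraries, so some loss in any other group can follow from the choice. The same shares over all genes at 1 CPM or more in BDL_veh were not computed, so no reversal by a compound can be read from these counts.

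The genes with the greatest changes differed in how evenly the libraries responded. They were picked by size of change among genes of the authors' protein-coding table whose groups did not overlap, and their names and functions are not given in the tables. ENSRNOG00000029949 had 0 counts in all 9 sham libraries and 3.10 to 44.8 CPM in ligated libraries, with a median of 11.3 CPM (n = 10). Against 3 counts in the pooled sham libraries, which 0 counts allow, the pooled level was 719-fold higher. The lower bound of its 95% interval was 693-fold for counting error alone, without the spread between libraries. Ligated library 10 gave 1038 of the 2882 pooled ligated counts. The adjusted p from edgeR was 4.26e-08. The fitted log2 fold change, which for such a gene depends on the prior count, was 10.97 (SE 1.54, derived from the test statistic). With the intronic share as a covariate it was 8.63 (edgeR adjusted p = 0.0116). Among ligated libraries the gene was lowest in library 8 and highest in libraries 10 and 7. In compound-treated ligated slices its medians were 4.56 CPM in BDL_Sora, 5.08 CPM in BDL_Nint and 0 CPM in BDL_SB525334, where 7 of 9 libraries had 0 counts.

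ENSRNOG00000045683 also had 0 counts in all 9 sham libraries. It lay between 7.50 and 29.2 CPM in ligated libraries, with a median of 11.97 CPM. Against the same floor the pooled level was 531-fold higher, with a lower bound of 509-fold for counting error alone. The fitted log2 fold change was 10.60 (SE 1.02, edgeR adjusted p = 4.60e-12). The highest library was ligated library 3, and the other 9 reached 15.3 CPM at most. With compounds its median was 6.80 CPM in BDL_Sora, 22.6 CPM in BDL_Nint and 1.29 CPM in BDL_SB525334.

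ENSRNOG00000050499 went from well expressed to nearly absent. Its level was 125 to 207 CPM in sham libraries, with a median of 182 CPM, and 0.172 to 1.51 CPM in ligated libraries, with a median of 0.446 CPM. The log2 fold change was -8.25 (SE 0.256, edgeR adjusted p = 2.85e-31). It was also low in ligated slices with compounds, at 0.0894 to 1.63 CPM. ENSRNOG00000048576 was at 2.15 to 20.3 CPM in sham libraries, with a median of 6.35 CPM, and had 1 count over all 10 ligated libraries. Pooled sham and ligated levels had a ratio of 1416, for which counting error alone gives a 95% interval of 254 to 55962. The fitted log2 fold change was -9.17 (edgeR adjusted p = 2.63e-22), -9.97 without ligated library 9, which held the count, and -6.42 with the intronic share as a covariate. All ligated libraries lay below the lowest sham library, which the choice of genes required, while the sham level itself varied widely.

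**Figure D2:**
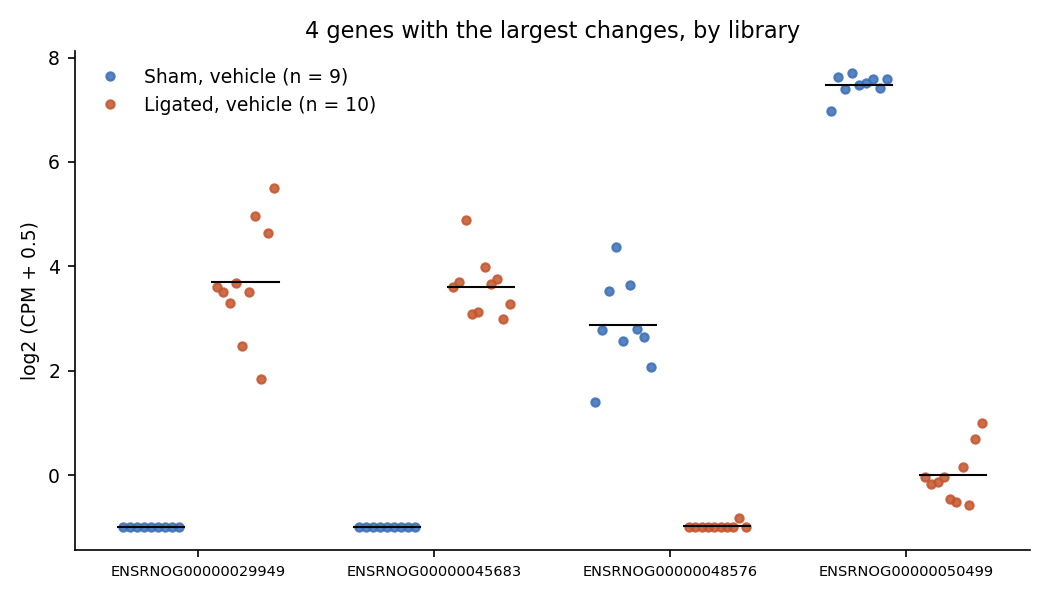
Levels of 4 genes in each sham (blue, n = 9) and ligated (red, n = 10) vehicle library, as log2 (CPM + 0.5); points are libraries, black lines are means of the plotted values, and a value of -1 stands for 0 counts. The first 2 genes had 0 counts in all sham libraries, and the last fell from a median of 182 to 0.446 CPM.

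The alignment shares of RNA classes other than messenger RNA differed between ligated and sham slices in both directions. How far such shares follow the amounts of these RNAs in the slices was not tested. For each library the share of mapped alignments was taken from the authors' quality metrics for 26 measures, 21 of them annotation classes and 5 of them kinds of alignment. The test was a two-sided exact permutation test of the difference in means, adjusted over the 26 measures. It called 24 of them (92.3%), 9 higher and 15 lower in ligated slices, and 16 showed no overlap between the groups. For a class without overlap the adjusted p was 3.52e-05, from p = 2.17e-05, the smallest that 9 and 10 libraries can give.

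The scaRNA, snRNA, snoRNA and rRNA classes rose. The scaRNAs, which guide the chemical modification of spliceosomal RNAs in Cajal bodies, were at 0.0255 ± 0.00181% of mapped alignments in sham and 0.0452 ± 0.00195% in ligated slices, a ratio of 1.77. Sham libraries ranged from 0.0227% to 0.0275% and ligated ones from 0.0423% to 0.0478%, which left a clear gap (exact permutation test, adjusted p = 3.52e-05). The snRNAs, the RNA core of the spliceosome, rose from 0.0117 ± 0.00181% to 0.0190 ± 0.00120% without overlap, a ratio of 1.61 (exact permutation test, adjusted p = 3.52e-05). The snoRNAs, which guide modification of ribosomal RNA in the nucleolus, rose from 0.0786 ± 0.0135% to 0.106 ± 0.00789% (ratio 1.35, exact permutation test, adjusted p = 5.93e-05), with overlap at the edges. The rRNA class rose from 0.00347 ± 0.000793% to 0.00502 ± 0.000771% (ratio 1.45, exact permutation test, adjusted p = 0.000450).

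Processed transcripts, the annotation's class for spliced RNA without an open reading frame, also rose without overlap, with a ratio of 1.49. The mitochondrial rRNA and tRNA, lincRNA and antisense classes fell, as did the larger pseudogene classes. Mitochondrial rRNA, the RNA of the organelle's own ribosome, went from 1.0003 ± 0.0786% to 0.524 ± 0.0208% of mapped alignments, a ratio of 0.524. Every sham library had 0.875% or more and every ligated library 0.553% or less. Mitochondrial tRNA fell to 0.661 of its sham share. Long intergenic noncoding RNA fell from 1.12 ± 0.101% to 0.620 ± 0.0482%, a ratio of 0.555, and antisense RNA to 0.566 of its sham share. Processed pseudogenes, copies of messenger RNAs inserted in the genome, fell to 0.580 and unprocessed pseudogenes to 0.651 of their sham shares. For these 6 classes the groups did not overlap (exact permutation test, adjusted p = 3.52e-05 for each). Unspecified pseudogenes, the largest pseudogene class, fell from 0.483 ± 0.0587% to 0.374 ± 0.00843%, a ratio of 0.775. They too did not overlap (exact permutation test, adjusted p = 3.52e-05). Transcribed unprocessed pseudogenes rose, with a ratio of 5.51 and no overlap (exact permutation test, adjusted p = 3.52e-05), but on as few as 3 alignments in a sham and 15 in a ligated library. Transcribed processed pseudogenes did not pass the test, with a ratio of 1.01 (exact permutation test, adjusted p = 0.660). Reads from pseudogenes can belong to their parent genes. Non-uniquely mapped alignments also fell, from 12.5 ± 1.12% to 9.31 ± 0.261%, and whether this bears on the pseudogene shares was not tested.

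The classes moved beside a shift from exons to introns. Protein-coding exons took 50.4 ± 3.44% of mapped alignments in sham and 42.7 ± 1.07% in ligated slices, and the intronic share was 27.4 ± 2.14% and 35.6 ± 0.895%. Because each class is a share of the same total, the comparison was repeated per protein-coding alignment. The scaRNA ratio was then 2.08, the snRNA ratio 1.90, the lincRNA ratio 0.650 and the mitochondrial rRNA ratio 0.618, all still without overlap (exact permutation test, adjusted p = 3.61e-05 for each). Since the protein-coding share itself fell, this total raises every ratio and is no strict check of the classes that rose. The intronic share rose by nearly as large a ratio as the snoRNA share. Classes were not compared per intronic alignment, so whether the scaRNA, snRNA, snoRNA and rRNA rises exceed the intronic shift was not tested. The misc_RNA class, which was 0.874 of its sham share by mapped alignments (exact permutation test, adjusted p = 0.000617), turned to a ratio of 1.02 per protein-coding alignment (adjusted p = 0.596). Ribozyme RNA did not pass the test by mapped alignments, at 0.297 ± 0.0323% and 0.304 ± 0.0253% (exact permutation test, adjusted p = 0.600). With the intronic share as a covariate in the test of genes, 9200 genes were called, 4596 higher and 4604 lower. The intronic share was 24.4% to 31.1% in sham and 33.7% to 36.8% in ligated libraries, without overlap. Its slope was fitted over all 48 libraries, those with compounds included. This covariate therefore cannot separate the operation from the intronic shift, also for the named genes above.

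**Figure D3:**
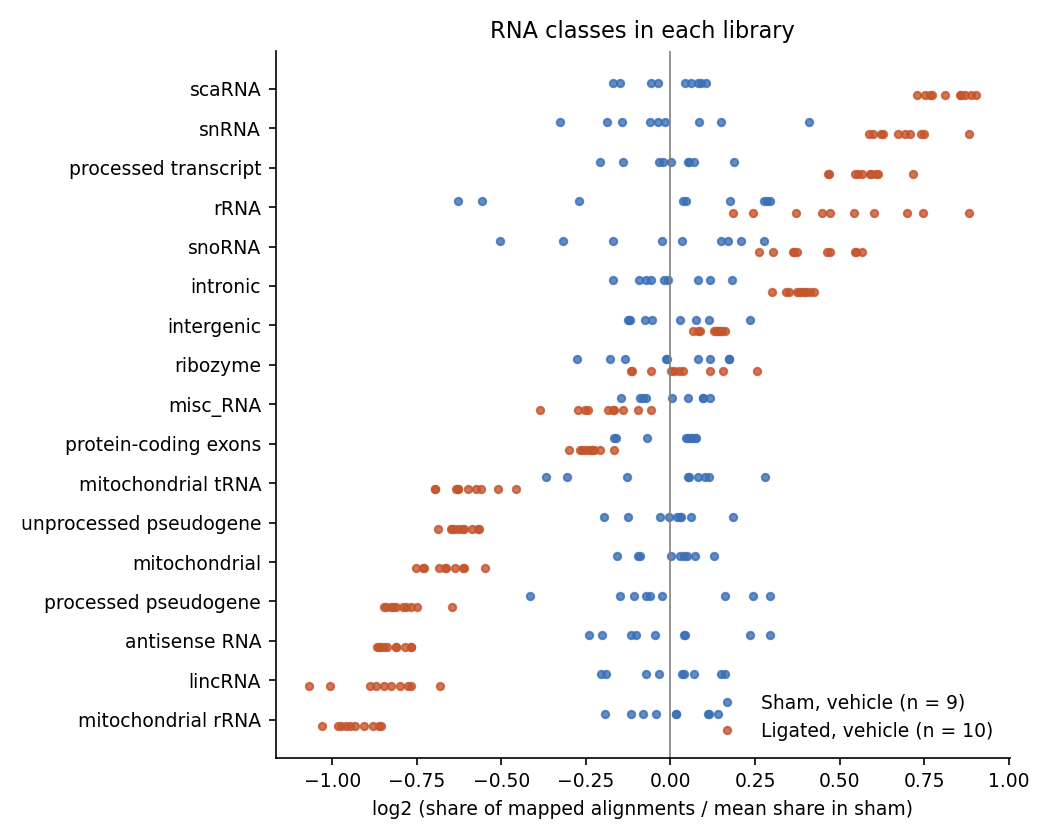
Share of mapped alignments of 17 RNA classes or alignment kinds in each sham (blue, n = 9) and ligated (red, n = 10) vehicle library, as log2 ratio to the mean sham share; points are libraries and the vertical line marks the sham mean. The scaRNA and snRNA classes lay above all sham libraries, and mitochondrial rRNA, lincRNA and antisense RNA below them.

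The scaRNA and lincRNA shifts were also present in ligated slices that received compounds. The scaRNA share was 0.0423 ± 0.00368% in BDL_Sora, 0.0411 ± 0.00247% in BDL_Nint and 0.0653 ± 0.0138% in BDL_SB525334, above all sham libraries in each group. The lincRNA share was 0.514 ± 0.0249%, 0.604 ± 0.0362% and 0.807 ± 0.0958% in the same order, below all sham libraries. Mitochondrial rRNA was 0.613 ± 0.0509% and 0.545 ± 0.0517% in the first 2 groups, below all sham libraries, and 1.20 ± 0.373% in BDL_SB525334, overlapping sham. The snRNA share overlapped sham in BDL_Sora, at 0.0175 ± 0.00155%, and in BDL_Nint, at 0.0166 ± 0.000829%, and lay above all sham libraries in BDL_SB525334, at 0.0291 ± 0.00732%. Processed transcripts overlapped sham in BDL_Sora and BDL_SB525334, at 0.147 ± 0.0102% and 0.144 ± 0.0126%, and lay above all sham libraries in BDL_Nint, at 0.153 ± 0.00887%.

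Ligated slices resembled each other more closely than sham slices did. The median SD per gene of log2 (CPM + 0.5) was 0.255 over sham and 0.138 over ligated libraries, and in 80.9% of the 14775 genes it was larger in sham. This held for 87.0% of the genes called lower, 73.9% of those called higher and 82.2% of those not called. It depended on the level: among genes at 100 to 1000 CPM the SD was larger in sham for 93.8%, and among genes under 1 CPM for 42.1%. No test was made, since genes of a library share its RNA.

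Single libraries set part of this pattern. The distance of a library from its group mean, as the root mean square over genes of log2 (CPM + 0.5), was 0.263 to 0.419 in sham slices. In ligated slices it was 0.195 to 0.247 for 8 libraries, below every sham library, and 0.422 and 0.327 for libraries 3 and 6. Without these 2 libraries the median SD of ligated slices was 0.118, and the SD was larger in sham for 87.6% of genes. Sham libraries 1, 5 and 9 had the highest intronic shares of their group, at 29.7%, 29.0% and 31.1%, and the others 27.2% or less. Without these 3 libraries the median SD of sham slices was 0.212 and was larger in sham for 71.3% of genes. The miRNA share was 0.0617%, 0.0450% and 0.0712% in sham libraries 1, 3 and 9 and 0.0341% or less in the others. It was 0.0150% to 0.0209% in ligated slices (exact permutation test, adjusted p = 0.00729), and the call was lost without sham libraries 1, 5 and 9 (adjusted p = 0.0771) and per protein-coding alignment (adjusted p = 0.0739).

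**Figure D4:**
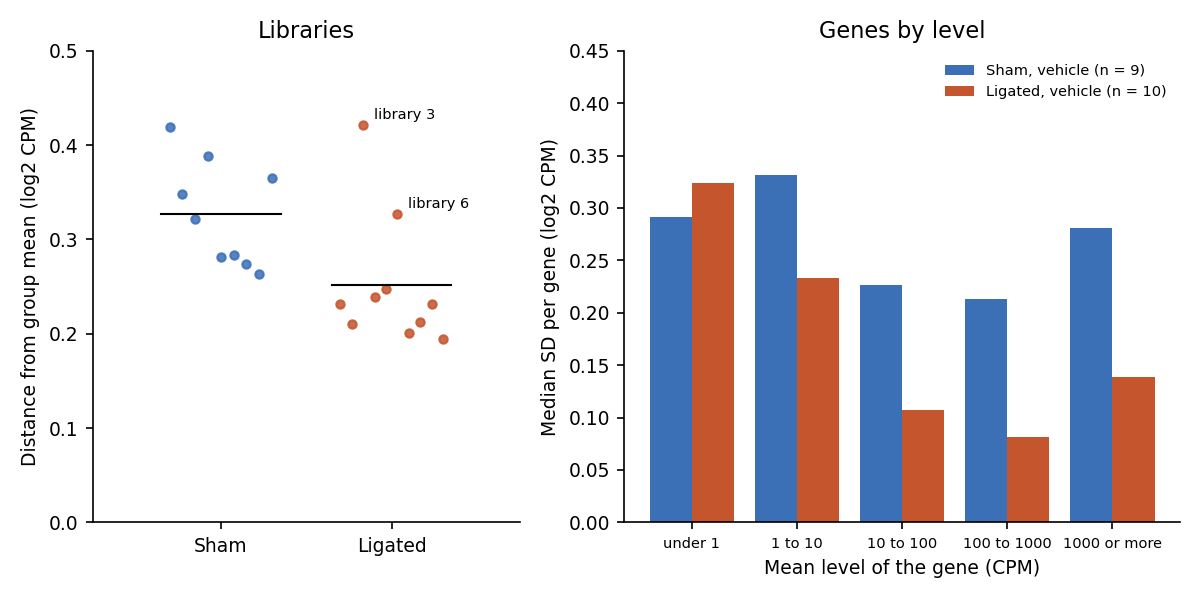
Left, distance of each sham (blue, n = 9) and ligated (red, n = 10) vehicle library from its group mean, as root mean square over genes of log2 (CPM + 0.5), with lines at the mean; right, bars of the median SD per gene by mean level of the gene. Ligated libraries 3 and 6 stand at 0.422 and 0.327, and the other 8 ligated libraries lie below every sham library.

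Principal components within each group were set against the intronic share. Of the variance among sham libraries the first component held 37.9% and the second 17.5%, and among ligated libraries these were 43.2% and 9.78%. The second sham component followed the intronic share (Pearson r = 0.957, exact permutation p = 4.96e-05, adjusted p = 0.000198; Spearman rho = 0.90, adjusted p = 0.00811; n = 9, 4 relations tested). Without the 2 libraries farthest from the median intronic share r was 0.943. The other 3 components did not pass the test, with adjusted p of 0.796 or more for Pearson r by permutation. Without the 2 farthest libraries r changed from -0.00 to 0.42 for the first sham component, from -0.08 to -0.35 for the first ligated and from -0.30 to 0.16 for the second ligated component, so a relation cannot be told at this number of libraries. The first ligated component set libraries 3 and 6, at 32.03 or more, apart from the other 8, at -2.52 or less.

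Genes whose counts the authors' software had divided between similar genes were a minority. Of 11122 genes with whole counts in all libraries 42.1% were higher and 41.8% lower in ligated slices. Of 2064 genes with fractional counts in most libraries, which share reads with similar genes and are less certain one by one, 29.0% were higher and 42.5% lower.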

How the data were processed

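RNA from rat liver slices was sequenced in 48 libraries, of which the 19 vehicle libraries were compared. The authors deposited expected counts for 32883 genes without normalisation, log2 CPM values for 14418 protein-coding genes and 172 quality metrics, treated as scores. RSEM, edgeR and the build Rnor_6.0 are named without versions, per the submitters' processing notes. The aligner is not given in the sources used here, and neither are the annotation release and each tool's role. In the metrics 98.7% to 99.2% of read pairs were antisense, so the libraries keep strand, but whether counting used it is not known here.

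Expected counts (8.02% not whole, tolerance 1e-06) were rounded, filtered with filterByExpr and TMM scaled. All 48 libraries entered a robust quasi-likelihood fit in edgeR 4.0.16 (R 4.3.3), with 1 coefficient for each of 5 groups. Genes were called at an adjusted p under 0.05. The SE of a log2 fold change was derived as its absolute value over the square root of the test's F statistic. It is not an SE from the fit and is a rough guide for genes with 0 counts in a group. Class shares are alignment counts of the metrics over mapped alignments, and their exact permutation test (SciPy 1.17.1) was added after the data were seen. A count of 0 allows 3 counts, or 0.145 to 0.236 CPM, and intervals and floors cover counting error only. Replicates of a group differed beyond sampling noise (chi-square per degree of freedom 3.94 or more, for genes of 20 counts upwards). The fit was also run on simulated data in which few genes changed, as many up as down and by the same folds. These data are unlike that setting, so the run cannot speak for the scaling here.

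The groups, comparison and lists were chosen with earlier results of these data known. Gene and marker lists and promoter motifs need gene names and were not analysed here. The genes named are the 2 largest increases and 2 largest decreases among called protein-coding genes whose groups did not overlap and whose higher group averaged 5 CPM or more. Alternatives were RLE factors, total counts, DESeq2 1.42.0, no filter, 5 CPM in at least 9 libraries, the 2 groups alone, a replicate block, the number in the library code (read as a plate column, which the labels do not state), limma-voom, limma on the authors' log2 CPM (limma 3.58.1) and each library left out. The intronic covariate, leaving out ligated libraries 3 and 6 or sham libraries 1, 5 and 9, and all alternatives for the switched genes, the spread and the class shares, single libraries left out included, were added after the data were seen.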

Additional observations from a re-analysis of the deposited data

Results flagged for a closer look

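In 8 cases a library lay far from the rest of its group by a gap test that marks about 1 in 20 groups by chance; 66 groups of values were examined. Ligated library 5 had the highest shares of processed pseudogenes, at 0.139% of mapped alignments against 0.121% to 0.129% in the others, of unspecified pseudogenes, at 0.395% against 0.368% to 0.380%, and of transcribed processed pseudogenes, at 0.00717% against 0.00600% to 0.00659%. Ligated library 4 had the highest snRNA share, at 0.0216% against 0.0176% to 0.0197%. Ligated library 10 had the highest share of the TEC class, transcripts awaiting experimental support, at 0.00151% against 0.00122% to 0.00137%. On the scale of log2 (CPM + 0.5), ENSRNOG00000045683 stood at 4.89 in ligated library 3 and at 3.98 or less in the others. ENSRNOG00000050499 stood at 6.97 in sham library 1 and at 7.39 to 7.70 in the others. ENSRNOG00000048576 stood at -0.81 in ligated library 9, which held its 1 count, and at -1 in the other ligated libraries; with 0 counts in the other 9, any count would have been marked, so this case carries no information.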

How the results depend on the processing

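The number of genes called was 9200 (intronic covariate) to 13870 (no filter) over 32 alternatives, and 12038 to 12213 with any library left out. Total counts moved the lower genes from 6235 to 4035 and those lower by 2-fold or more from 1897 to 1040; the filter of 5 CPM gave 1247, from fewer genes tested. No other alternative moved a count of calls by over 1.5 times. Replicate numbers follow the order of a letter and number in the library codes, read here as plate positions although the labels do not say so, and name no animal. Same-numbered libraries of both groups had correlations of deviations from -0.237 to 0.186, above 0.1 in 2 of 9 pairs. No values of differently numbered pairs are given beside these, so whether the numbers pair libraries cannot be told. With the replicate block 12111 genes were called. The number in these codes is 1 to 5 for sham and 3 to 6 for ligated libraries, and with it as a factor 11917 genes were called. Switched-on genes ranged from 678 to 807 and switched-off genes from 49 to 90. The 4 named genes kept direction and call in each alternative that tested them, but fitted sizes moved: log2 fold changes were 8.61 to 11.13 for ENSRNOG00000029949 (highest adjusted p 0.041, limma-voom), 8.28 to 10.75 for ENSRNOG00000045683, -9.97 to -6.42 for ENSRNOG00000048576 and -8.63 to -7.90 for ENSRNOG00000050499. Per protein-coding alignment the misc_RNA ratio turned from 0.874 to 1.02, and the sense intronic and exonic measures, at 0.894 and 0.986, were no longer called; ribozyme RNA (1.20) and transcribed processed pseudogenes (1.19) were. The cause was not tested. The planned counts for gene lists were not run, since they need gene names.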
